A study of Sus scrofa with 54 samples.

Results

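Genes of the PMP22, EMP, claudin and junction plaque families were followed in the ileum of piglets raised in 3 environments. The genes were PMP22, EMP1, CLDN3 and TJP4, which were represented by 5 of the 23999 probesets tested on the porcine GeneChip. PMP22, EMP1 and TJP4 had 1 probeset each. CLDN3 had 2, called here the first and the second probeset. The platform annotation named the 2 CLDN3 probesets, whereas the names PMP22, EMP1 and TJP4 came only from the study's own gene lists. PMP22 and TJP4 had been listed by the study for IN against OUT at day 28, PMP22 also for IR against OUT at day 28 and IN against OUT at day 56, and EMP1 for IR against OUT at day 56. Those lists were drawn from the same arrays, so the values in these comparisons are not independent evidence of a difference.

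The animals were 54 piglets of Large White × Landrace sows that were all inseminated by the same boar, with 6 piglets in each of 9 groups. OUT piglets were reared by sows kept outdoors and IN piglets by sows kept indoors. IR piglets were taken from indoor sows about a day after birth, housed singly in isolators, fed milk replacer and dosed daily with the antibiotics Baytril and Amoxinsol. Ileum was collected at days 5, 28 and 56. Piglets were weaned at day 28 and offered creep feed after that, so age, weaning and diet cannot be told apart between days 28 and 56. Removal from the sow, the move to isolator units at a university, isolation, formula feeding and antibiotics likewise cannot be told apart in the IR groups. This holds for IR against IN as well. Each indoor sow gave piglets to both IN and IR, so these groups share litters. OUT piglets came from other sows at another facility, so dam and site cannot be told apart from rearing in comparisons with OUT. The labels do not give the litter, and the tests treat piglets as independent. Each array held the RNA of a whole piece of ileum, in which a change in the share of a cell type and a change in the RNA per cell cannot be told apart.

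Tight junctions seal the space between neighbouring epithelial cells near the lumen and set what passes between them. Claudins are the membrane proteins that form the seal and its pores, and CLDN3 is a sealing claudin common in intestinal epithelium. PMP22 and EMP1 are small proteins with 4 membrane spans that are distantly related to claudins. PMP22 is best known from the myelin of peripheral nerve, but it is also made in epithelium, where it is found at tight junctions, and in other tissues. EMP1 is a membrane protein of epithelia linked to growth and differentiation. TJP4 is an older name for a plaque protein on the inner face of the junction that joins it late in assembly.

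The levels of these probesets are given on the deposited log2 scale, where a step of 1 is a fold change of 2 and where the array medians lay between 3.99 and 4.22. The PMP22 probeset was bright on every array and ranged from 8.01 to 12.07. EMP1 ranged from 2.96 to 9.63. The first CLDN3 probeset ranged from 6.40 to 10.04. The second CLDN3 probeset stayed between 2.37 and 3.18 and never reached a level of 4 on any of the 54 arrays, so that its lack of change carries little information. The correlation of the 2 CLDN3 probesets was 0.05 within groups over 54 arrays and 0.86 over the 9 group means. TJP4 ranged from 2.70 to 6.58. It reached a level of 4 on 0 of 18 arrays at day 5, 12 of 18 at day 28 and 18 of 18 at day 56, so its day 5 values lay near the dim end of the array.

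The array of OUT day 5 replicate 3 stood apart from the others. Its mean correlation with the other arrays of its group was 0.881, against 0.935 to 0.985 for the other 53 arrays. It held the lowest mean level of the epithelial markers in its group (9.72, against a group mean of 10.85) and the highest of the smooth muscle markers (11.80, against 10.79). It also gave the highest PMP22, EMP1 and TJP4 values of its group. The main results that use it are also given without it, in fits chosen after seeing the data.

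**Figure D1:**
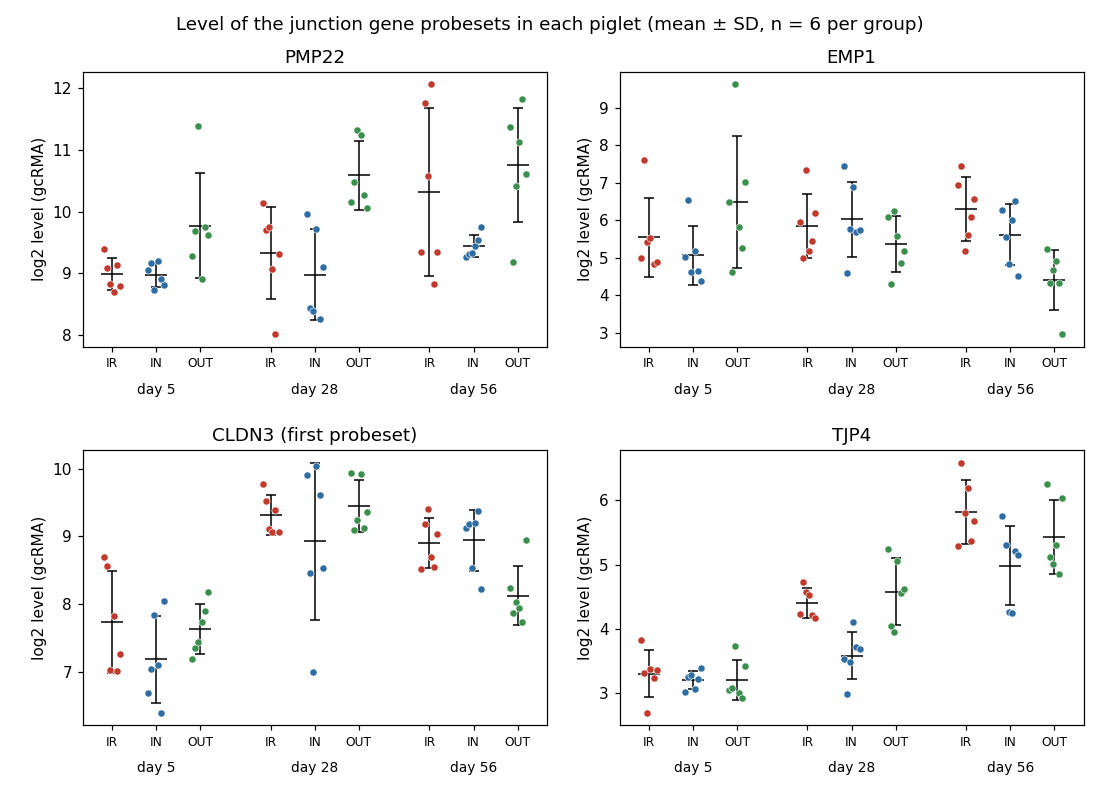
Log2 level of PMP22, EMP1, CLDN3 (first probeset) and TJP4 in each of 54 piglets, by rearing group (IR, IN, OUT) and day. Dots are piglets and black bars are the mean ± SD of 6 piglets. PMP22 lay highest in the OUT piglets at day 28, CLDN3 rose after day 5, and TJP4 rose with age.

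In the rearing comparisons a probeset was counted as changed if it passed an unadjusted limma p of 0.01 and a fold change of at least 2, the criterion of the study. Among the 45 values of 5 probesets in 9 rearing comparisons, 3 met it, and none had an adjusted p under 0.05 over all probesets (0.417 to 0.999). At day 5 none of the 5 probesets met it for IR against OUT, IN against OUT or IR against IN, where 0.338%, 0.05% and 0.367% of all probesets did. At day 28 PMP22 was lower in IR and in IN than in OUT, 1 of 5 probesets each, beside 0.154% and 0.192% of all probesets, and none met the criterion for IR against IN (0.496% of all). At day 56 EMP1 was higher in IR than in OUT, 1 of 5 probesets beside 0.283% of all, and none met it for IN against OUT (0.275%) or IR against IN (0.288%). IR against OUT and IN against OUT share the OUT piglets, so they are not independent comparisons.

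PMP22 was higher in OUT piglets at day 28. In OUT piglets its level was 10.06 at the lowest, 10.38 at the median and 11.33 at the highest. In IN piglets the values were 8.26, 8.77 and 9.96, and in IR piglets 8.01, 9.51 and 10.14. Every OUT piglet thus lay above every IN piglet, which was so in either direction for 0.192% of all probesets, while the highest IR piglet slightly passed the lowest OUT piglet. Group means were 10.59 ± 0.56 in OUT, 9.33 ± 0.75 in IR and 8.98 ± 0.73 in IN (SD, n = 6). The level fell by 1.61 on the log2 scale in IN against OUT (SE 0.37, 3.06-fold, limma adjusted p = 0.770, two-sided exact permutation p = 0.00216, the smallest that 6 against 6 can give). The log2 difference of IR against OUT was -1.26 (SE 0.37, 2.40-fold, limma adjusted p = 0.999, two-sided exact permutation p = 0.00433). IR and IN differed by 0.35 (95% interval -0.44 to 1.14), less than the spread within either group. The IR call rested on single piglets. Leaving out IR replicate 5, the lowest IR piglet, brought the difference to -0.996, just under 2-fold, and without OUT replicate 3 or 4 it was -1.11 or -1.13 and missed the p criterion. The IN call held without any one piglet.

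At the other days PMP22 also had its highest mean in OUT, but less clearly. At day 5 the OUT piglets ranged from 8.90 to 11.40 with a median of 9.66, against 8.70 to 9.40 (median 8.95) in IR and 8.73 to 9.20 (median 8.98) in IN. The differences were -0.79 for IR against OUT (95% interval -1.40 to -0.18) and -0.80 for IN against OUT (-1.41 to -0.18), with two-sided exact permutation p = 0.0216 and 0.0173. Without OUT replicate 3, whose PMP22 level was 11.40, they were -0.46 and -0.47, with two-sided exact permutation p = 0.0433 and 0.0346. At day 56 the OUT piglets ranged from 9.19 to 11.83 (median 10.87) and the IN piglets from 9.27 to 9.75 (median 9.39), so 1 OUT piglet lay below all of IN. The difference was -1.32 (SE 0.51, 2.49-fold, limma adjusted p = 0.572), which passed the fold but not the p criterion. It met both when only the IN and OUT arrays were fitted and when all 9 groups shared 1 fit, and also without OUT replicate 2 (-1.63).

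The IR group at day 56 was the most spread for PMP22. Its piglets ran from 8.83 to 12.07 around a median of 9.97, with an SD of 1.36 against 0.18 in IN. IR and OUT differed there by -0.43 (95% interval -1.51 to 0.65). An interaction test asked whether the PMP22 difference of IN against OUT changed between days. From day 5 to day 28 the change was -0.82 (SE 0.59, 95% interval -2.01 to 0.38, limma adjusted p = 0.871). Without OUT day 5 replicate 3 it was -1.14 (SE 0.57, limma adjusted p = 0.999). From day 28 to day 56 it was 0.30 (95% interval -0.90 to 1.49, limma adjusted p = 0.929). These intervals are wide, so the test does not settle whether the difference varied with day.

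Markers of cells of the gut wall moved in the same direction as PMP22 in some of these comparisons. In IN against OUT at day 28 all 8 measured smooth muscle markers, of 10 listed, were lower in IN, with a median log2 fold change of -0.27 and none meeting the criterion. The mean level of the list ranged from 9.47 to 10.90 in IN and from 10.30 to 10.84 in OUT. In IR against OUT at day 28 only 5 of the 8 were lower (median -0.08, list mean 10.14 to 10.64 in IR). At day 5 all 8 were lower both in IR and in IN than in OUT (median -0.24 each), with list means from 10.15 to 11.19, 10.37 to 10.74 and 10.29 to 11.80 in IR, IN and OUT. Without OUT day 5 replicate 3 this did not hold: 4 of the 8 were lower in IR and 5 of 8 in IN (medians -0.03 and -0.08), and the highest list mean in OUT was 10.71. None of these markers lay below 4 on all arrays. Fibroblast and matrix markers were lower in 8 of 11 measured genes in IN against OUT at day 28 (median -0.19), and markers of Schwann cells, glia and neurons were lower in 2 of 10 (median 0.14). Epithelial markers were lower in IN in 13 of 14 (median -0.38). The part of these cells in the PMP22 difference was not tested.

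**Figure D2:**
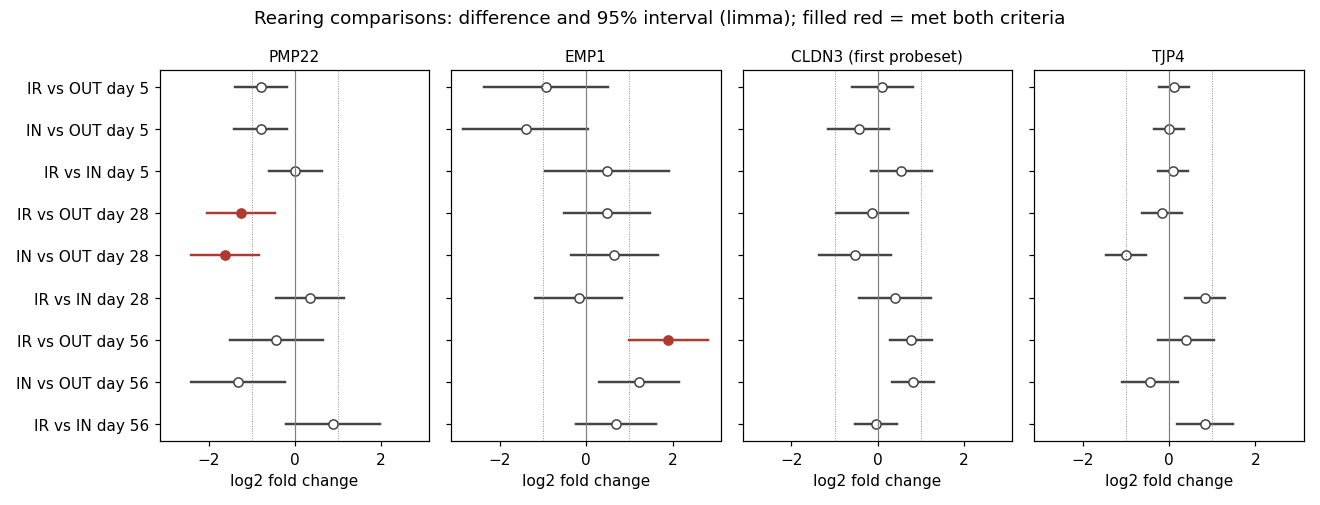
Log2 fold change (point) and 95% interval (line, limma) of each gene in the 9 rearing comparisons; dotted lines mark a fold change of 2, and filled red points met both the p and the fold criterion. The 3 red points are PMP22 in IR against OUT and IN against OUT at day 28 and EMP1 in IR against OUT at day 56.

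At day 56 the IR piglets had more EMP1 signal than the OUT piglets. In OUT piglets its level was 2.96 at the lowest, 4.49 at the median and 5.24 at the highest. In IR piglets the values were 5.17, 6.33 and 7.46, and in IN piglets 4.51, 5.79 and 6.52. The IR and OUT ranges met only at their edges, whereas 2 of the IN piglets lay within the OUT range. The means were 4.40 ± 0.79 in OUT, 6.31 ± 0.85 in IR and 5.62 ± 0.81 in IN (SD, n = 6). Relative to OUT, EMP1 in IR was raised 3.74-fold (log2 1.90, SE 0.44, limma adjusted p = 0.649, two-sided exact permutation p = 0.00433). The difference of IN against OUT was 1.21 (SE 0.44, 2.32-fold, limma adjusted p = 0.553, two-sided exact permutation p = 0.0260), which passed the fold but not the p criterion. It met both without IN replicate 2 (1.37), without IN replicate 6 (1.44) or without OUT replicate 1 (1.38). IR and IN differed by 0.69 (95% interval -0.24 to 1.62).

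At the earlier days the EMP1 groups overlapped. At day 5 OUT had the highest mean, 6.48 ± 1.76, against 5.55 ± 1.05 in IR and 5.07 ± 0.78 in IN (SD, n = 6), but the OUT values ran from 4.62 to 9.63. Without OUT replicate 3, which held the 9.63, the OUT mean was 5.85 ± 0.95 (SD, n = 5), and the differences of IR and IN against OUT moved from -0.93 and -1.41 to -0.30 and -0.78. At day 28 the differences were 0.47 for IR against OUT (95% interval -0.53 to 1.48) and 0.65 for IN against OUT (-0.35 to 1.65). Between day 5 and day 56 the difference of IR against OUT changed by 2.83 on the log2 scale (SE 0.80) and that of IN against OUT by 2.63 (SE 0.80), with limma adjusted p = 0.984 and 0.736. Without OUT day 5 replicate 3 the changes were 2.205 (SE 0.71, limma adjusted p = 0.886) and 1.99 (SE 0.71, limma adjusted p = 0.779).

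Several marker lists also differed between IR and OUT at day 56. All 14 measured epithelial markers were higher in IR than in OUT (median 0.22, none meeting the criterion), with list means from 11.53 to 11.79 in IR and 11.09 to 11.72 in OUT. List means in IR and OUT were also higher in IR for smooth muscle (10.74 and 10.52), fibroblast and matrix (8.69 and 8.49), endothelium (5.38 and 5.15) and glia and neuron markers (4.47 and 4.35). All 8 measured T cell markers were lower in IR than in OUT (median -0.99, none meeting the criterion). Lower list means were also seen for B and plasma cell (7.98 and 8.82) and macrophage and dendritic cell markers (5.96 and 6.31). The ranges of these further lists overlapped. The part of these cells in the EMP1 difference was not tested. No EMP1 change between days met the criterion in any rearing group. The largest was in OUT from day 5 to day 28 (-1.10, 95% interval -2.24 to 0.04), which was -0.47 without OUT day 5 replicate 3.

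No CLDN3 difference between environments met the criterion at days 5 and 28. At day 5 the differences of its first probeset were 0.55 for IR against IN (95% interval -0.16 to 1.25), -0.44 for IN against OUT (-1.15 to 0.26) and 0.10 for IR against OUT (-0.60 to 0.81). The level was 9.45 ± 0.38 in OUT, 9.32 ± 0.29 in IR and 8.93 ± 1.16 in IN at day 28 (SD, n = 6). The wide IN spread came with a low of 7.001, in the array that ranked next to last by its correlation with its own group. The 95% intervals at day 28 were -0.96 to 0.71 for IR against OUT and -1.36 to 0.31 for IN against OUT, whose difference of -0.52 ranged from -0.74 to -0.14 when each array was left out in turn. At day 56 the OUT piglets were lower, with values from 7.74 to 8.94 (median 7.99), against 8.52 to 9.40 (median 8.87) in IR and 8.22 to 9.37 (median 9.15) in IN. The highest OUT piglet, at 8.94, lay within both other ranges. CLDN3 was 1.71-fold higher in IR (log2 0.77, SE 0.23, limma adjusted p = 0.649, two-sided exact permutation p = 0.0108) and 1.76-fold higher in IN (log2 0.81, SE 0.23, limma adjusted p = 0.504, two-sided exact permutation p = 0.0173). Both passed the p criterion but not the fold, so they were not counted as changed. The change of IN against OUT between days 28 and 56 was 1.33 (SE 0.48, limma adjusted p = 0.370). The epithelial markers lay in the same direction at day 56, with 14 of 14 higher in IR and 13 of 14 higher in IN than in OUT (medians 0.22 and 0.20), and the list mean ranged from 11.44 to 11.84 in IN. Their part in the CLDN3 difference was not tested.

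TJP4 was low in IN piglets at day 28. The IN values were 2.98 at the lowest, 3.604 at the median and 4.11 at the highest. In IR piglets they were 4.16, 4.38 and 4.73, and in OUT piglets 3.95, 4.59 and 5.24. Every IR piglet lay above every IN piglet, which held in either direction for 0.342% of all probesets, whereas the IN and OUT ranges overlapped slightly. The means were 3.58 ± 0.37 in IN, 4.41 ± 0.23 in IR and 4.58 ± 0.52 in OUT (SD, n = 6). IN was lower than OUT by 1.99-fold, just short of the fold criterion (log2 -0.99, SE 0.22, limma adjusted p = 0.770, two-sided exact permutation p = 0.00649). TJP4 had rank 5 among all probesets by p in that comparison. The study had listed it there from the same arrays, so the rank is not independent evidence. Leaving out any of 5 single piglets took it past both criteria. The IN median lay under a level of 4, in the dim range. IR was 1.77-fold higher than IN (log2 0.82, SE 0.22, limma adjusted p = 0.417, two-sided exact permutation p = 0.00216). IR and OUT differed by -0.17 (95% interval -0.63 to 0.29).

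At day 56 IN again had the lowest TJP4 mean, with 5.81 ± 0.50 in IR, 5.43 ± 0.58 in OUT and 4.98 ± 0.61 in IN (SD, n = 6), but the ranges overlapped. IR against OUT was 0.39 (95% interval -0.26 to 1.03). The difference of IR against IN was 0.83 (SE 0.31, limma adjusted p = 0.779, two-sided exact permutation p = 0.0216), and it became 1.09 and met the criterion when the array without a number in each of these groups was left out. At day 5 the 3 groups lay between 3.20 and 3.30, with 95% intervals of -0.24 to 0.45 for IR against OUT and -0.34 to 0.36 for IN against OUT, at levels under 4. The change of IN against OUT from day 5 to day 28 was -1.002 (SE 0.345, limma adjusted p = 0.786). Without OUT day 5 replicate 3 this change was -1.11 (SE 0.35, limma adjusted p = 0.999). In IN against OUT at day 28, 13 of 14 epithelial markers were also lower (median -0.38), with list means from 10.66 to 11.65 in IN and 11.37 to 11.77 in OUT. In IR against IN all 14 were higher (median 0.40), and 1 of them met the criterion. Their part in the TJP4 difference was not tested.

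The identity of the TJP4 probeset is not settled. The platform annotation gives it no gene. AMOTL1, a different junction plaque protein to which it has also been linked, is placed by that annotation on another probeset. The correlation of the 2 probesets was 0.33 within groups over 54 arrays and -0.53 over the 9 group means. The AMOTL1 probeset changed by between -0.65 and 0.22 on the log2 scale over the 15 comparisons and met the criterion in 0 of them.

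CLDN3 and TJP4, which met the criterion in no rearing comparison, met it in 4 age comparisons each. From day 5 to day 28 the first CLDN3 probeset and TJP4 rose in OUT, 2 of 5 probesets beside 6.93% of all, CLDN3 rose in IN, 1 of 5 beside 8.08%, and both rose in IR, 2 of 5 beside 6.27%. From day 28 to day 56 CLDN3 fell in OUT, 1 of 5 beside 3.06%, and TJP4 rose in IN and in IR, 1 of 5 each beside 2.57% and 2.42%. PMP22 and EMP1 did not meet the criterion in any of the 6 age comparisons. Many probesets changed with age, so the shares of the members must be read against these backgrounds.

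CLDN3 rose by similar amounts in the 3 environments after day 5. Its level at day 5 ran from 7.19 to 8.18 in OUT, 6.40 to 8.04 in IN and 7.02 to 8.70 in IR. At day 28 it ran from 9.10 to 9.94 in OUT and 9.06 to 9.78 in IR, above every piglet of day 5, and from 7.001 to 10.04 in IN, with overlap. Such separation was seen for 5.95% of all probesets in OUT and 8.06% in IR. The rise was 3.52-fold in OUT (log2 1.81, SE 0.34, limma adjusted p = 0.000147), 3.34-fold in IN (1.74, limma adjusted p = 0.000209) and 2.998-fold in IR (1.58, limma adjusted p = 0.000812). Without OUT day 5 replicate 3 the rise in OUT was 1.78 on the log2 scale. From day 28 to day 56 CLDN3 fell 2.50-fold in OUT (log2 -1.32, SE 0.34, limma adjusted p = 0.0107), with every day 56 piglet below every day 28 piglet (3.18% of all probesets). The same step was 0.01 in IN (95% interval -0.67 to 0.70) and -0.42 in IR (-1.10 to 0.26).

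TJP4 increased at most steps. In OUT it rose from a median of 3.06 at day 5 to 4.59 at day 28 and 5.21 at day 56. The first step was 2.60-fold (log2 1.38, SE 0.24, limma adjusted p = 6.81e-05), with the 2 days apart in every piglet, as for 5.95% of all probesets. Without OUT day 5 replicate 3 this step was 1.49 on the log2 scale. The second was 1.80-fold (0.85, SE 0.24, limma adjusted p = 0.0229), under the fold criterion. In IR the medians were 3.34, 4.38 and 5.74, and both steps met the criterion, 2.15-fold (limma adjusted p = 0.0012) and 2.65-fold (limma adjusted p = 0.000176), with no overlap between days (8.06% and 5.14% of all probesets). Without IR day 5 replicate 3 the first of these was 0.98 on the log2 scale and fell just under the fold criterion. In IN the medians were 3.24, 3.604 and 5.17. The early step was 0.38 (95% interval -0.11 to 0.87) and the late step 2.64-fold (log2 1.40, limma adjusted p = 0.000258), again with no overlap, as for 2.57% of all probesets. The day 5 values lie in the dim range of the array, where a fold change may be understated.

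PMP22 changed by 0.82 in OUT from day 5 to day 28 (95% interval -0.03 to 1.66). Without OUT day 5 replicate 3 this was 1.14 and met the criterion (limma adjusted p = 0.0499, two-sided exact permutation p = 0.00433). In IR it changed by 0.99 from day 28 to day 56 (1.99-fold, limma adjusted p = 0.178), just short of the criterion, which it met when replicate 5, replicate 6 or the array without a number at day 56 was left out. In IN it changed by 0.00 and 0.46, with 95% intervals of -0.85 to 0.85 and -0.39 to 1.31.

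Cell markers changed with age as well. From day 5 to day 28, 6 of 8 measured T cell markers met the criterion as higher in OUT and in IN, and 7 of 8 in IR. Of all probesets 6.93%, 8.08% and 6.27% met it in either direction. Of the epithelial markers, 6 of 14 met it as higher in OUT, 2 of 14 in IN and 2 of 14 in IR. Their medians were 0.57, 0.15 and 0.39, below the CLDN3 rise in each. Without OUT day 5 replicate 3, 13 of 14 were higher at day 28 in OUT and 2 of 14 met the criterion (median 0.51). From day 28 to day 56 no epithelial marker met the criterion in OUT (median 0.00), where CLDN3 fell. The part of changing cell content in the age differences was not tested.

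The order of the 9 group levels showed how few neighbours were apart. For PMP22 it ran from IN day 5 (8.98) to OUT day 56 (10.76), for EMP1 from OUT day 56 (4.40) to OUT day 5 (6.48), for CLDN3 from IN day 5 (7.19) to OUT day 28 (9.45) and for TJP4 from OUT day 5 (3.20) to IR day 56 (5.81). For PMP22 and EMP1 no group differed from the next by more than the larger of their SDs. For CLDN3 this was so at 1 step, from OUT day 56 to IR day 56 (0.77), and for TJP4 at 1 step, from IN day 28 to IR day 28 (0.82).

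Within the groups the 4 genes deviated together only weakly. After each group mean was subtracted, the correlations over 54 arrays among PMP22, EMP1, the first CLDN3 probeset and TJP4 lay between 0.18 and 0.42 in the 6 pairs. These correlations are descriptions, since the points share arrays and RNA quality. CLDN3 deviated with the epithelial markers (r = 0.60, or 0.74 without OUT day 5 replicate 3). PMP22 deviated most with the smooth muscle markers (r = 0.57, or 0.50 without that array) and the fibroblast markers (0.48, or 0.37), and its correlation with the epithelial markers was 0.00, or 0.33 without that array. TJP4 deviated most with the fibroblast markers (0.51, or 0.49). EMP1 gave -0.08 with the epithelial markers, or 0.38 without that array, so that no sign can be read from it.

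**Figure D3:**
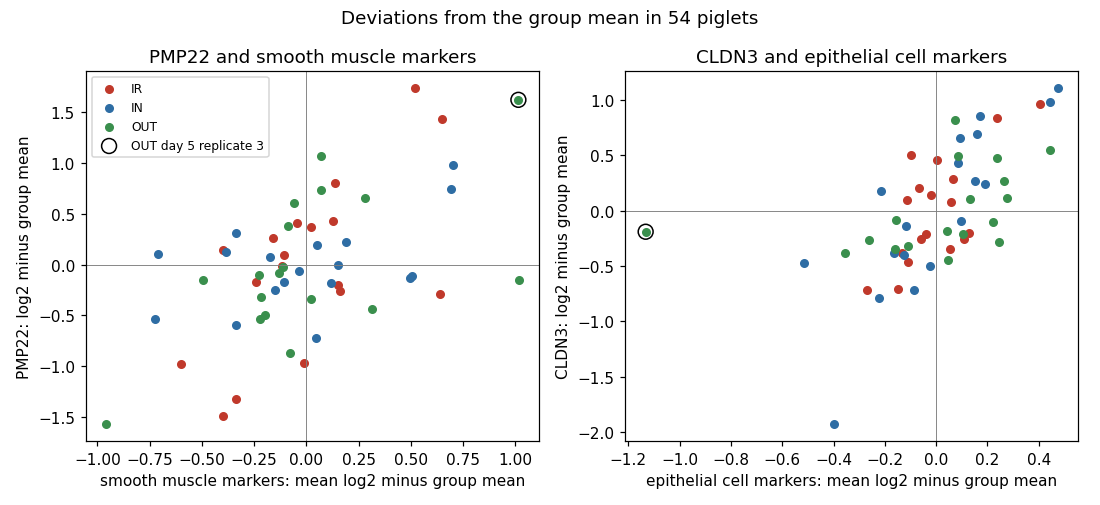
Deviation of PMP22 from its group mean against that of the mean of 8 smooth muscle markers (left), and of CLDN3 (first probeset) against that of 14 epithelial markers (right), in log2 units for 54 piglets coloured by rearing group; the circle marks OUT day 5 replicate 3. The correlations were 0.57 and 0.60, or 0.50 and 0.74 without the circled array.

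The named probesets whose deviations were most like those of each gene gave r between 0.61 and 0.72. For PMP22 they were GORASP2, HSPB8 (a small heat shock protein), MYL6 (a myosin light chain of smooth muscle and non-muscle cells), ZDHHC3 and PRAF2. For EMP1 they were CSNK1A1 (casein kinase 1 alpha), IFRD1, SEC61A1 (part of the channel for proteins entering the endoplasmic reticulum), ZC3H7A and DIEXF, and without OUT day 5 replicate 3 their r fell to between 0.48 and 0.61. For CLDN3 they were SLA-2 (a class I histocompatibility gene), ABHD16A, NUCB1, LOC100739163 and ELF3, an epithelial transcription factor. For TJP4 they were FBXO31, LAMB2 (a laminin chain of basement membranes), CDC42BPB, MAP4 and THRA (a thyroid hormone receptor).

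Of 103 other junction genes listed, 47 could be measured with a probeset of their own name. Few of these met the criterion between environments. PLLP, a small tetraspan protein of myelin and epithelium, was 6.63-fold higher in IR than in IN at day 5 (limma adjusted p = 0.450). MPDZ, a tight junction scaffold, was 2.01-fold lower in that comparison (limma adjusted p = 0.174). These 2 of 47 genes (4.26%) stood beside 0.367% of all probesets. MAGI3, another scaffold of cell junctions, was 2.205-fold lower in IN than in OUT at day 28 (limma adjusted p = 0.770). It was the 1 of 47 genes (2.13%) that met the criterion there, beside 0.192% of all probesets. PMP22 and TJP4 were also low in IN in that comparison. No other junction gene met the criterion in the 9 rearing comparisons, and the median log2 fold change of the 47 genes lay between -0.11 and 0.18.

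By list, 1 of 5 measured small tetraspan proteins (EMP3, PERP, CLDND1, MAL2 and PLLP), namely PLLP, met the criterion in some rearing comparison. So did 2 of 10 plaque and polarity proteins. None of 8 other claudins, 7 other tight junction membrane proteins, 9 adherens junction proteins, 3 desmosome proteins or 5 connexins did. Of these genes 2 claudins, 1 membrane protein, 3 adherens junction proteins and 2 connexins stayed below a level of 4 on all 54 arrays, where a change may not be seen. The share of all probesets that met the criterion in any of the 9 rearing comparisons was not computed. The list counts therefore have no background. Among the tight junction membrane proteins the nearest were LSR, a protein of tricellular junctions, in IR against IN at day 28 (log2 0.75, limma adjusted p = 0.430) and JAM3 in IR against OUT at day 5 (-0.41, limma adjusted p = 0.776). Among the desmosome proteins they were PPL (0.35, limma adjusted p = 0.678) and DSP (0.39, limma adjusted p = 0.798), for IR against OUT and IR against IN at day 56. EMP3, the other EMP gene measured, differed by 0.24 in IR against OUT at day 56 (SE 0.40, limma adjusted p = 0.913), where EMP1 was higher.

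**Figure D4:**
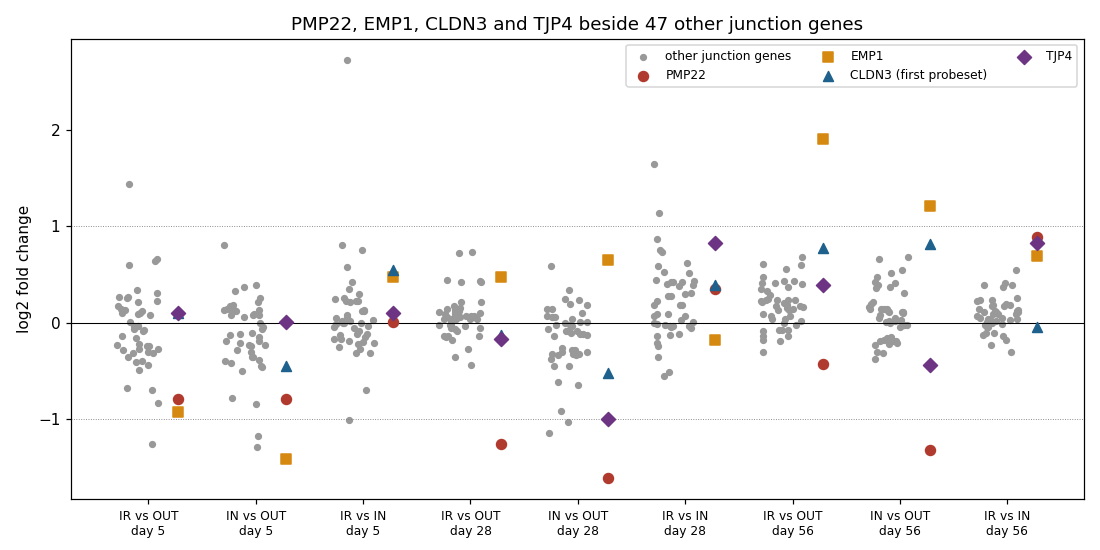
Log2 fold change of 47 other junction genes (grey dots) and of PMP22, EMP1, CLDN3 (first probeset) and TJP4 (coloured symbols) in the 9 rearing comparisons; dotted lines mark a fold change of 2. PMP22 in IR and IN against OUT at day 28 and EMP1 in IR against OUT at day 56 lie beyond most of the grey dots. The study had listed both genes in these comparisons from the same arrays, so their place is not independent evidence. The medians of the grey dots stay between -0.11 and 0.18.

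Over the 6 age comparisons between 2 and 5 of the 47 junction genes met the criterion, or 4.26% to 10.6%, beside 2.42% to 8.08% of all probesets. GJA4, a connexin of vascular endothelium, fell from day 5 to day 28 in OUT, IN and IR (5.62-, 3.47- and 3.57-fold, limma adjusted p = 8.13e-09, 7.76e-06 and 5.89e-06). CLDN11 also fell in the 3 groups (3.26-, 2.60- and 2.35-fold, limma adjusted p = 0.00519, 0.0210 and 0.0523). MPDZ fell in OUT and IN (2.26- and 3.15-fold) and CLDN5, the claudin of endothelium, in OUT (3.80-fold, limma adjusted p = 0.00143). PLLP rose in OUT and IN (4.41- and 5.71-fold, limma adjusted p = 0.0177 and 0.00428), and ARHGEF2, a nucleotide exchange factor at tight junctions, rose in IR (2.76-fold). Without OUT day 5 replicate 3 the 5 calls in OUT held (GJA4 5.57-fold, CLDN11 3.25-fold, MPDZ 2.26-fold, CLDN5 2.43-fold lower and PLLP 5.81-fold higher), and CLDN4 (2.02-fold higher), ARHGEF2 (2.27-fold higher) and CLDN10 (4.11-fold lower) met the criterion as well, so 8 of 47 did beside 7.52% of all probesets. Endothelial markers were lower at day 28 in 8 of 9 measured genes in OUT, 8 of 9 in IN and 7 of 9 in IR (medians -0.82, -0.43 and -0.42), with 3, 2 and 2 of them meeting the criterion. In OUT the median was -0.51 without that array, with 2 meeting it. The part of endothelium in the falls of GJA4 and CLDN5 was not tested.

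From day 28 to day 56 the claudin CLDN10 and the small GTPase RAB13 fell in OUT (4.16- and 2.12-fold, limma adjusted p = 0.0596 and 0.000175) and in IR (4.82- and 2.09-fold, limma adjusted p = 0.0462 and 0.000238). In IN, MAGI3 rose 2.49-fold (limma adjusted p = 0.00587) and JUP, the plakoglobin of adherens junctions and desmosomes, rose 3.10-fold (limma adjusted p = 0.0185), in the same step as TJP4.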

How the data were processed

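The deposited table held log2 expression values of 54 arrays, which the authors made from scanned Affymetrix porcine arrays with GCOS version 1.2 and GCRMA; they used limma for their tests. The scale adjusts background by base content and brings the arrays to one distribution, so low values are compressed and only differences of a probeset between arrays were read. The 124 control probesets were left out of 24123, and 23999 were tested. The platform annotation gave 1 gene symbol for 10069 of these, several for 198 and none for 13732. It holds no probe sequences or coordinates, so none are given. The number of arrays limits the precision.

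Rearing comparisons were fitted by day over its 3 groups with limma 3.58.1 in R 4.3.3; age and interaction contrasts came from 1 fit of all 9 groups. Changed means that the unadjusted p lay below 0.01 and the fold reached 2. Adjusted p is by Benjamini-Hochberg over all probesets. The 75 two-sided exact permutation tests of single probesets used SciPy 1.17.1 and are not adjusted. A gene of a list was read from its probeset with the highest mean. Named were every probeset of the 4 genes, the junction genes that met the criterion (or up to 2 with the smallest p where a list had none) and the 5 named probesets most like each gene; EMP3 and AMOTL1 were named after their values were seen. The genes, lists and tests were chosen with earlier results of these data known. The fit was tested on simulated data. The labels do not give the experimental run, which the authors used as a block. They give numbers within groups, 1 array each of IR and IN at day 56 excepted. The fits have no block because the run is not labelled. Deviations of same-numbered arrays had a mean r of -0.11 to 0.18 over 9 pairs of groups, with single values from -0.48 to 0.68. The numbers are not known to mark the run, so these values cannot show whether runs differed. The authors' own fold changes and p-values were not used. Alternatives were blocks by number, other group sets, renewed normalization, a filter on dim probesets and leaving out each array.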

Additional observations from a re-analysis of the deposited data

Results flagged for a closer look

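A single piglet lay far from the other 5 of its group in 3 of 45 sets of 6 values, and chance gives about 1 in 20. PMP22 in OUT day 5 replicate 3 was 11.40, against 9.75 for the next highest piglet. EMP1 in IR day 5 replicate 2 was 7.61, against 5.52 for the next. EMP1 in IN day 5 replicate 2 was 6.55, against 5.19 for the next. The EMP1 pair lies at the margin in IN, where the gap was 0.625 of the range of the group.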

How the results depend on the processing

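Of the 3 calls between environments none held when an adjusted p under 0.05 replaced the criterion (PMP22 -1.26 in IR and -1.61 in IN against OUT at day 28, EMP1 1.90 in IR against OUT at day 56). All 3 held under each block by number, the 2-group fits, the shared fit of 9 groups, both renewed scalings, the filter on dim probesets and robust fitting. The filter removed TJP4 at day 5, so it gave no value there. The alternatives that moved other values across the criterion or 0 follow; the cause was not tested.

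With the replicate block by number in twos, TJP4 in IR against IN at day 56 met the criterion (1.09), as with the block by label number (1.03), with numbered arrays alone (1.09) and with the 2 groups and the block (1.09, chosen after seeing the data). PMP22 in IR from day 28 to 56 also met it with the block (1.23). CLDN3 in IR against IN at day 56 turned from -0.040 to 0.072, 0.13, 0.072 and 0.072 in those 4 fits, and in IN from day 28 to 56 from 0.014 to -0.039. PMP22 in IN against OUT at day 56 met the criterion in the 2-group fit (-1.32), that fit with the block (-1.28) and the shared fit (-1.32), and EMP1 in that comparison with robust fitting (1.21). Renewed quantile normalization turned PMP22 in IR against IN at day 5 to -0.026 and in IN from day 5 to 28 to -0.054. Median centring turned the first to -0.019 and CLDN3 in IN from day 28 to 56 to -0.041. No paired reading is drawn, since the numbers are not known to pair the arrays.

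Leaving out each array in turn gave ranges that crossed 0 or the criterion. At day 5 they were -0.089 to 0.25 (CLDN3, IR against OUT), -0.00076 to 0.23 (TJP4, IR against OUT), -0.073 to 0.065 (PMP22, IR against IN), -0.0084 to 0.22 (TJP4, IR against IN) and -0.048 to 0.11 (TJP4, IN against OUT). At day 28 they were -1.42 to -0.996 (PMP22, IR against OUT), -0.47 to 0.11 (EMP1, IR against IN) and -1.12 to -0.86 (TJP4, IN against OUT). At day 56 they were -0.18 to 0.047 (CLDN3, IR against IN), -1.63 to -1.10 (PMP22, IN against OUT) and 0.93 to 1.44 (EMP1, IN against OUT). With age they were 0.65 to 1.29 (PMP22, IR, day 28 to 56), -0.37 to 0.24 (CLDN3, IN, day 28 to 56), -0.048 to 0.48 (PMP22, OUT, day 28 to 56), -0.20 to 0.14 (PMP22, IN, day 5 to 28), 0.98 to 1.21 (TJP4, IR, day 5 to 28) and 0.64 to 1.14 (PMP22, OUT, day 5 to 28). The second CLDN3 probeset and TJP4 at day 5 are limited by their dim signal.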
